A study of Clytia hemisphaerica and Astroides calycularis and Pocillopora acuta with 17 samples.

Results

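The 4 genes described here are GABA B receptor-like genes of 2 cnidarian larvae, chosen by name: the GABBR2-like gene XLOC_003734 of the hydrozoan Clytia hemisphaerica, and the GABBR2-like genes XP_027036429.1 and XP_027040340.1 and the GABBR1-like gene XP_027040334.1 of the coral Pocillopora. They are 1 of 18761 features counted in Clytia and 3 of 19923 in Pocillopora. The planula is the swimming larva that settles and turns into a polyp, and whole planulae were dissociated and read out cell by cell with the 10x Genomics method, which gives counts of unique molecular identifiers (UMIs, each standing for 1 captured RNA molecule). Clytia had 4 biological samples: planulae 66 h postfertilization (hpf), planulae at 52 hpf, both fixed with ACME (acetic acid and methanol) and raised from the same batch of medusae, and an earlier set of ACME cells and of methanol-fixed cells, whose age the labels do not state. The 66 hpf and 52 hpf samples had 2 technical replicates each, and the 5 ACME captures came in 1 matrix. Pocillopora had 2 biological samples, larvae of colony C3 and larvae of colony C6, the second with 2 technical replicates. The study states that its parent colonies share a genotype. Larvae of the 2 colonies were released in different months, so colony and date cannot be told apart. All were untreated animals of no altered genotype, the 66 hpf, 52 hpf and coral samples are 1 dissociation of pooled larvae each, the coral larvae carry symbiotic algae, and the coral reads were mapped to the genome of another Pocillopora species. How many dissociations lie behind the earlier ACME and methanol sets is not stated, and each was taken as 1 sample. Tests over these samples measure the spread between them, which may be technical.

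In vertebrates the GABA B receptor is a pair of class C G protein–coupled receptors, the family that also holds the metabotropic glutamate receptors. GABBR1 carries the pocket that binds GABA, and GABBR2 couples the pair to G proteins and brings it to the cell surface. In cnidarians the partner and the ligand of each gene are known only by likeness to those proteins. In the study neither GABA nor baclofen, a drug that activates GABA B receptors, changed settlement of Clytia. Its authors propose that a different ligand may bind these receptors there. Added taurine did inhibit settlement of Clytia and of the coral Astroides. In a model that the authors call speculative, taurine binds GABA receptor-like proteins of GLWamide cells. GLWamide neurons are aboral sensory-secretory cells of the planula that make GLWamide neuropeptides, which trigger metamorphosis in several hydrozoans. The study named these receptors as genes of those cells, so their levels there are given as a description, without a test.

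The filters kept 15372 Clytia cells in 6 matrices, with a median of 941 to 1643 UMIs a cell, and 9734 Pocillopora cells in 3 matrices, with a median of 745.5 to 820. Matrices of 1 species shared at most 0.231% of their barcodes. Cells were clustered anew, and a cluster was called GLWamide-like only if at least 3 and at least 50% of the naming genes of that type were over 4 times higher than in all other cells. The 4 receptor genes and the other receptor genes listed below were kept out of the clustering. In Clytia, 14539 cells fell into 27 clusters and 182 cells were GLWamide-like, with all 10 naming genes raised. Among these genes is a GLWamide precursor, XLOC_017096, the only one counted as the precursor below. In Pocillopora there were 29 clusters and 161 GLWamide-like cells, with 10 of 11 naming genes raised. Only 22 of these cells (13.7%) held a UMI of the precursor XP_027060553.1. The study places GVWamide neurons in the same Pocillopora cluster as GLWamide neurons, so this class may hold both. Markers of GVWamide neurons were not looked at here.

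The border of the coral class was not stable. Clusters are built from a random start, and the partition of the highest quality of 10 starts was used. In Clytia all 10 starts gave the same 182 cells. In Pocillopora every start named 1 class that held the same 161 cells, but 7 of the 10 gave a wider class of 863 to 961 cells. In the first start the added cells were nearly all from cluster 3, which raised 5 of the 11 GLWamide naming genes by itself. With 2 further ways of rounding in the linear algebra, 22 of 30 starts gave a class of over 500 cells, and the best start of each of these 2 was one of them, with 861 cells. Coral values are therefore given for the 161 cells, and at the end for the wider class.

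XLOC_003734 was nearly absent from Clytia cells outside the GLWamide-like cluster. Its level in GLWamide-like cells, in UMIs of the gene per 1000000 UMIs (CPM), was 860 at 66 hpf (95% exact Poisson interval 734 to 1003), 904 at 52 hpf (675 to 1185), 1014 in the ACME sample (808 to 1257) and 648 in the methanol sample (378 to 1038). In all other cells it stood at 0.645, 0.555, 0.297 and 1.93 CPM in the same samples. The lowest GLWamide-like value lay far above the highest of the other cells, and the means were 857 ± 153 CPM in GLWamide-like cells and 0.856 ± 0.729 CPM in other cells (SD, n = 4). Of its 351 UMIs, 316 lay in the GLWamide-like cluster, which held 182 of the 14539 cells.

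The values at 66 hpf and at 52 hpf lay within each other's counting intervals. The 2 technical replicates at 66 hpf gave 769 and 985 CPM, and those at 52 hpf gave 1029 and 806 CPM. Each age has 1 biological sample, so the ages were not tested, and intervals cover counting error only. GLWamide-like cells made up 100 cells at 66 hpf, 28 at 52 hpf, 29 in the ACME sample and 25 in the methanol sample.

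**Figure D1:**
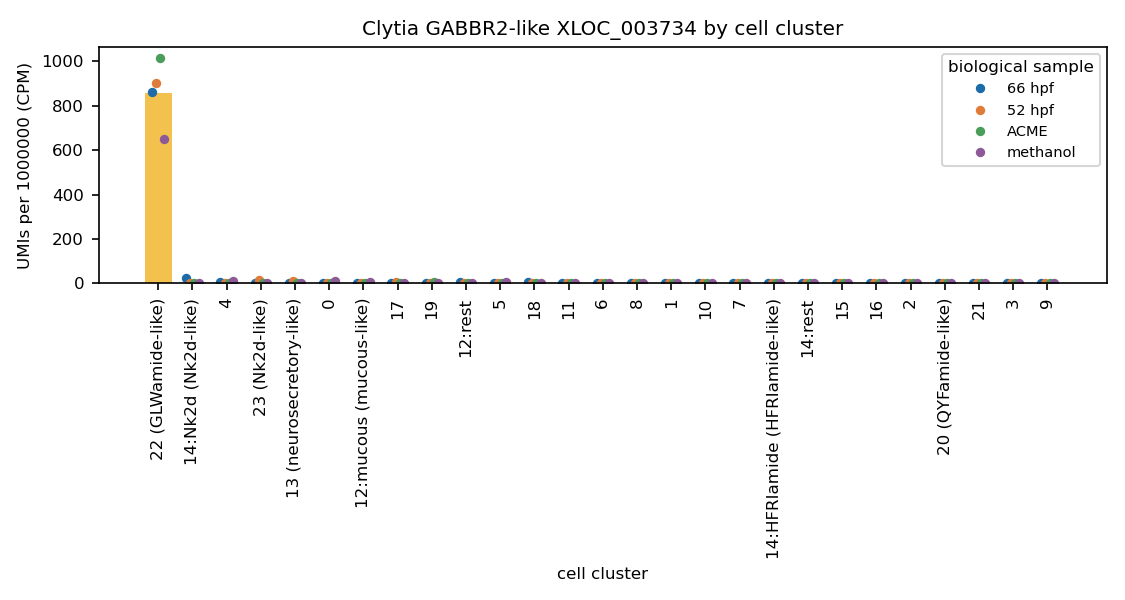
CPM of the Clytia GABBR2-like gene XLOC_003734 (y axis, linear) in each cell cluster (x axis, where 12 and 14 were split into named parts and a rest); bars are means of 4 biological samples and points are the samples. The GLWamide-like cluster averaged 857 CPM, and no other cluster averaged more than 5.93 CPM.

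A UMI of XLOC_003734 was found in 75 of 182 GLWamide-like cells (41.2%, 95% exact binomial interval 34.0 to 48.7) and in 30 of 14357 other cells (0.209%). By sample, 45 of 100 GLWamide-like cells held one at 66 hpf, 13 of 28 at 52 hpf (46.4%), 13 of 29 in the ACME sample (44.8%) and 4 of 25 in the methanol sample. The methanol share stood apart from the other 3, and that sample also had the lowest median depth, 941 UMIs a cell. When each cell with enough UMIs was thinned to 500, the shares came to 36.4% at 66 hpf, 41.7% at 52 hpf, 40.9% in the ACME sample and 17.6% in the methanol sample (88, 24, 22 and 17 cells, with 12, 4, 7 and 8 shallower cells left out), so the methanol share then rested on 3 cells with a UMI of 17. Over all samples the thinned share was 35.8% in GLWamide-like cells and 0.0754% in other cells. Mucous-like cells, a secretory type, held a UMI in 1 of 284 cells (0.352%), with a median of 1679.5 UMIs a cell against 1376.5 in GLWamide-like cells.

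Within the GLWamide-like cluster the receptor and the neuropeptide precursor XLOC_017096 were found in the same cells. The study describes another GLWamide precursor gene in these cells, so a cell without a UMI of XLOC_017096 may hold that one. By staining RNA in the larva, the study also saw a GLWamide precursor and a GABA B receptor-like gene in the same aboral cells. XLOC_003734 was present in 73 of 104 cells with a precursor UMI (70.2%) and in 2 of 78 without one (2.56%), and 314 of its 316 UMIs lay in the first set. In levels, this was 1195 CPM (1067 to 1335) in cells with the precursor and 21.4 CPM (2.59 to 77.2) in cells without. Cells with the precursor were also deeper, with a median of 1814 UMIs against 922, and the part of depth was not tested. Among the 75 cells with the receptor, 44 had 3 or more UMIs and the highest had 32. Outside the cluster, 11 of 798 cells with a precursor UMI (1.38%) held the receptor, and 19 of 13559 cells without one did (0.140%).

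For every 100 precursor UMIs there were 1.83 UMIs of XLOC_003734 in GLWamide-like cells and 1.90 in other cells. By sample, the ratio was 2.46 in GLWamide-like cells and 1.61 in other cells at 66 hpf, 1.07 and 1.25 at 52 hpf, 1.59 and 1.45 in the ACME sample, and 3.15 and 7.75 in the methanol sample. The values of other cells rest on 13 receptor UMIs at 66 hpf, 7 at 52 hpf, 5 in the ACME sample and 10 in the methanol sample, and GLWamide-like cells had the higher ratio in 2 of the 4 samples. The part of free RNA in the counts of other cells was not tested.

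Other Clytia clusters held at most 8 UMIs of XLOC_003734. The next in order were an Nk2d-like cluster, with 5 UMIs, all at 66 hpf (mean 5.93 ± 11.9 CPM), and cluster 4, which took no name, with 8 UMIs (4.60 ± 5.16 CPM), and these neighbours do not differ beyond their spread (SD, n = 4). No UMI was found among the 97 HFRIamide-like cells or the 209 QYFamide-like cells, the other peptidergic neurons, nor in 7 further clusters. The gene passed the filter on low counts in 1 of 24 other clusters that could be fitted. That was cluster 4, where it passed through its own UMIs there, so its call against the cells outside that cluster and the GLWamide-like cluster (log2 fold change 2.87 ± 0.949 SE, edgeR quasi-likelihood adjusted p = 0.0156), where 12.9% of all genes were called higher, supports no difference. With no filter on low counts, edgeR called it in 0 of the 24 clusters, and 2 had an unadjusted p under 0.05. The 8 UMIs were 2 at 66 hpf, 0 at 52 hpf, 2 in the ACME sample and 4 in the methanol sample, and the call was also lost without the ACME or the methanol sample.

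Over 103 points, each 1 cluster in 1 sample with at least 20 cells, the genes whose log2(CPM + 10) followed XLOC_003734 most closely among 15627 genes were XLOC_002079 (Pearson r = 0.96), annotated as a zinc carboxypeptidase, a class of enzyme that trims peptides, then MSTRG.15427 (0.95), XLOC_041404 (0.95), annotated only with a signal peptide, XLOC_014127 (0.93) and XLOC_013581 (0.93). Of these, XLOC_002079 and XLOC_041404 are naming genes of the GLWamide type. The precursor XLOC_017096 came 22nd (0.84). All of these correlations rest on the few points of 1 cluster, which share libraries, and are given as a description.

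Among other genes of the receptor family and of GABA signalling in Clytia, an ion channel and a TauD gene rose in GLWamide-like cells. Of 16 listed genes, 9 passed the filter on low counts and 2 were called higher in GLWamide-like cells, where 8.19% of all 12144 genes tested were called higher. The median log2 fold change of the 9 was -0.87, or -0.11 with the 1 gene that had no UMI in GLWamide-like cells set at a limit of 3 UMIs, and that of all genes was -0.51. MSTRG.15099, a neurotransmitter-gated (Cys-loop) ion channel, stood at 126, 104, 85.5 and 153 CPM in GLWamide-like cells at 66 hpf, at 52 hpf, in the ACME sample and in the methanol sample, against 5.51, 4.36, 3.56 and 3.66 CPM in other cells. The groups did not overlap in any sample, and its log2 fold change was 3.94 ± 0.474 (SE, adjusted p = 5.80e-15, edgeR). MSTRG.12764, or TauDa, a relative of taurine dioxygenases, was also called (1.48 ± 0.442, adjusted p = 0.00495). It averaged 119 ± 86.1 CPM in GLWamide-like cells and 21.8 ± 13.6 CPM in other cells (SD, n = 4), it is a naming gene of the HFRIamide type with 2254 CPM in HFRIamide-like cells, and the call was lost without the sample block and without the ACME or the methanol sample.

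The class C receptors gave no call in GLWamide-like cells. XLOC_014025 averaged 66.9 ± 84.0 CPM in GLWamide-like cells and 27.3 ± 16.9 CPM in other cells (SD, n = 4; adjusted p = 0.646, edgeR), with 191 CPM in the methanol sample alone, and its sign turned when the methanol or the 66 hpf sample was left out and with no integration of matrices. XLOC_030753, MSTRG.23592 and MSTRG.9008 had no UMI among 356219 UMIs of GLWamide-like cells, which allows a level of up to 8.42 CPM, above their levels in other cells. The vesicular transporter XLOC_033747 (VIAAT, which loads GABA or glycine into vesicles) and the transporter XLOC_030751 (BGT-1, of the GABA and betaine carrier family) were highest in HFRIamide-like cells, at 283 and 304 CPM. The GABRB1-like gene XLOC_000357, a subunit of ionotropic GABA receptors in vertebrates, was highest in QYFamide-like cells, at 1047 CPM, and averaged 10.8 ± 18.4 CPM in GLWamide-like cells and 21.7 ± 13.3 CPM in other cells (adjusted p = 0.0601, edgeR). It passed the threshold as lower with RLE size factors (adjusted p = 0.0465), no filter (0.0292), no integration (0.0488), limited scaled values (0.0216) and without the methanol sample (0.0221). TauDb, XLOC_041385, passed the threshold as lower (adjusted p = 0.0366, edgeR). It had no UMI in GLWamide-like cells, against 9.09 CPM over all other cells, a level so close to the 8.42 CPM limit that counting error alone leaves no difference shown and no fold is given, and the call was lost with DESeq2, with no cluster left out, and without the 66 hpf, the 52 hpf or the ACME sample.

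In Pocillopora none of the 3 genes kept to 1 cluster. The GABBR2-like gene XP_027036429.1 stood in GLWamide-like cells at 567 CPM in colony C3 (432 to 732) and 528 CPM in colony C6 (417 to 660). In all other cells it stood at 38.0 CPM in C3 (33.2 to 43.4) and 58.7 CPM in C6 (52.4 to 65.5). The colonies gave the same order, with means of 548 ± 28.0 CPM in GLWamide-like cells and 48.3 ± 14.6 CPM in other cells (SD, n = 2), and the GLWamide-like cells held 136 of its 671 UMIs (20.3%).

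The highest level of this gene lay in cluster 23, with 870 CPM in C3 and 1281 CPM in C6 (1076 ± 291, SD, n = 2). This cluster raised no naming gene of the coral types looked for, which were GLWamide, gland mucous, neurosecretory 1, neurosecretory 2 and apical. It stays unnamed, since markers that the study gives for other types, such as cnidocytes and other neurons, were not looked at. Cluster 23 had 124 cells, 85 from C3 and 39 from C6, with a median of 671.5 UMIs, no UMI of the GLWamide precursor, and leading genes XP_027042588.1, XP_027040434.1, XP_027051839.1 and XP_027046586.1, the last in 79.0% of its cells against 9 UMIs in all cells outside. The order then went to GLWamide-like cells, to the unnamed cluster 25 (394 CPM in C3 and 680 CPM in C6), to gland mucous-like cells (144 and 353), to neurosecretory 1-like cells (213 and 121) and to cluster 3 (127 and 195). Cluster 23 stayed above GLWamide-like cells in both colonies, GLWamide-like cells and cluster 25 overlapped and stood above the others, and gland mucous-like cells, neurosecretory 1-like cells and cluster 3 overlapped. The neurosecretory 1-like values rest on 5 UMIs in 15 cells of C3 and 10 UMIs in 51 cells of C6. XP_027036429.1 was found in 23 of the 28 clusters other than the GLWamide-like one.

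**Figure D2:**
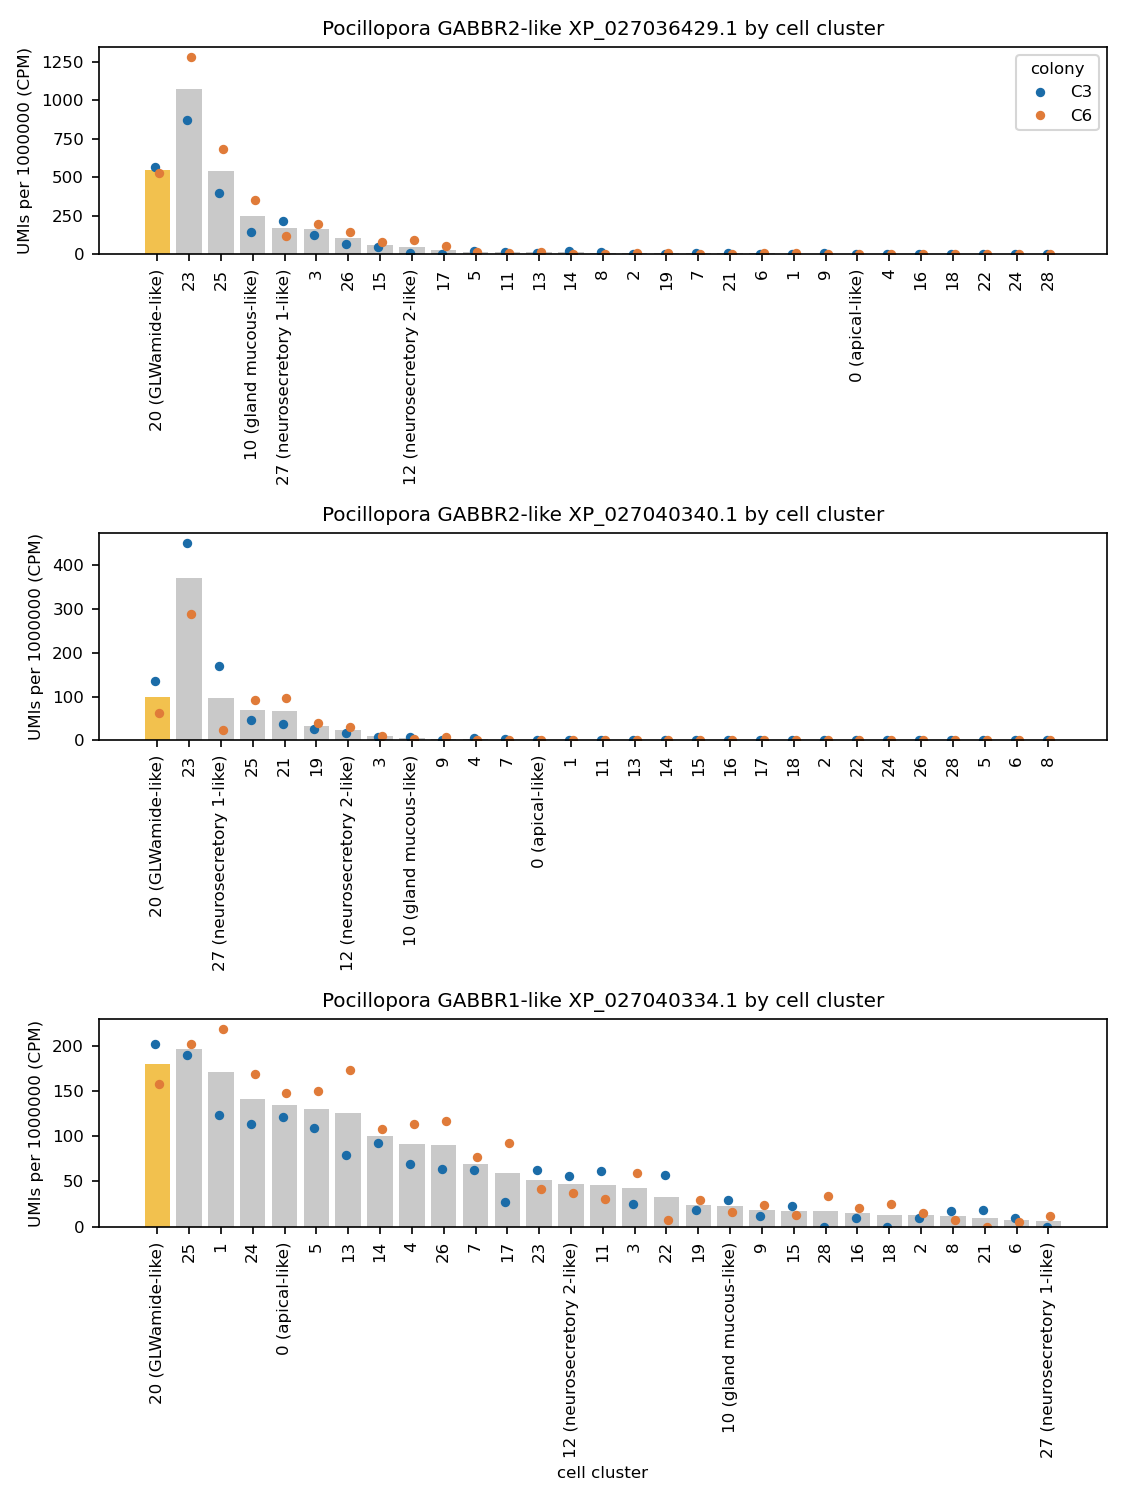
CPM (y axis, linear, own range in each panel) of the 3 Pocillopora receptor genes in each cell cluster (x axis); bars are means of colonies C3 and C6 and points are the colonies. The GABBR2-like genes were highest in cluster 23, at 1076 and 370 CPM, and the GABBR1-like gene was spread over many clusters, with 180 CPM in GLWamide-like cells.

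Each other cluster was set against the cells outside it and outside the GLWamide-like cluster. XP_027036429.1 was called higher in 4 of 28 clusters, which were cluster 23 (log2 fold change 3.93 ± 0.331 SE, adjusted p = 1.25e-28), cluster 25 (3.16 ± 0.321, 1.80e-19), the gland mucous-like cluster 10 (2.58 ± 0.242, 1.02e-06) and cluster 3 (2.01 ± 0.197, 4.57e-11; edgeR quasi-likelihood test, adjusted over genes and over clusters). Of all genes tested, 4.84% were called higher in cluster 23, 3.45% in cluster 25, 5.27% in cluster 10 and 10.0% in cluster 3. The call in the gland mucous-like cells was lost without the colony as a block.

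A UMI of XP_027036429.1 was found in 53 of 124 cells of cluster 23 (42.7%, 33.9 to 51.9), in 50 of 161 GLWamide-like cells (31.1%, 24.0 to 38.8) and in 326 of 9573 cells outside the GLWamide-like cluster (3.41%). The cells of cluster 23 were shallower, with a median of 671.5 UMIs against 1384 in GLWamide-like cells. Thinned to 500 UMIs, the shares were 28.7% in cluster 23, 18.6% in GLWamide-like cells and 2.06% in the cells outside the GLWamide-like cluster. Cluster 23 therefore kept the larger share at equal depth, with overlapping intervals (20.1 to 38.6 and 12.6 to 25.9).

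XP_027040340.1, the second GABBR2-like gene, was rarer, with 108 UMIs in all. It stood in GLWamide-like cells at 135 CPM in C3 (73.6 to 226) and 61.7 CPM in C6 (28.2 to 117), against 9.25 CPM in C3 and 5.92 CPM in C6 in other cells. Cluster 23 was again the highest, with 451 CPM in C3 and 289 CPM in C6 (370 ± 114, SD, n = 2), and held 36 of the 108 UMIs (33.3%) in 124 of 9734 cells. Next to GLWamide-like cells came neurosecretory 1-like cells (170 CPM in C3 and 24.2 CPM in C6). Then came cluster 25 (47.3 and 91.9) and cluster 21 (36.5 and 97.2). All of these overlapped with GLWamide-like cells in range, and their values rest on few UMIs. In C3 and C6 these were 4 and 2 in neurosecretory 1-like cells, 3 and 5 in cluster 25, 4 and 3 in cluster 21. The neurosecretory 1-like cells of C3 numbered 15. The gene was called higher in cluster 23 alone of 28 clusters (log2 fold change 5.65 ± 0.629 SE, adjusted p = 5.13e-16, edgeR), and in 5 at an unadjusted p under 0.05. The share of cells with a UMI was 21.8% in cluster 23 (14.9 to 30.1), 11.2% in GLWamide-like cells (6.76 to 17.1) and 0.773% in all cells outside the GLWamide-like cluster, and after thinning 19.8%, 5.52% and 0.545%.

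**Figure D3:**
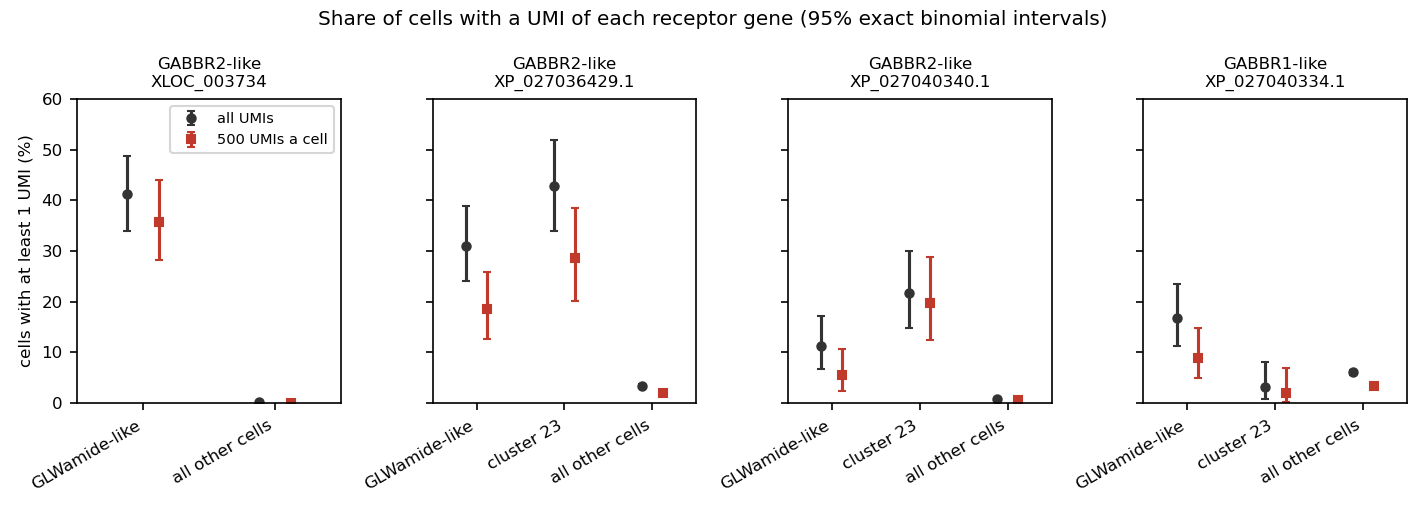
Share of cells with at least 1 UMI of each receptor gene (y axis, %) in GLWamide-like cells, in Pocillopora cluster 23 and in all cells outside the GLWamide-like cluster; circles use all UMIs, squares 500 UMIs drawn from each cell, and bars are 95% exact binomial intervals. At 500 UMIs the Clytia gene was found in 35.8% of GLWamide-like cells, and XP_027036429.1 in 18.6%.

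The GABBR1-like gene XP_027040334.1 had 700 UMIs and a broad distribution. In GLWamide-like cells it stood at 202 CPM in C3 (125 to 309) and 158 CPM in C6 (99.96 to 237), against 54.1 CPM in C3 and 64.0 CPM in C6 in other cells. GLWamide-like cells held 44 of its UMIs (6.29%), and it was found in all 28 other clusters. Their mean, 180 ± 31.3 CPM, came second to cluster 25 (196 ± 9.09), and cluster 1 (171 ± 67.0), cluster 24 (141, with 114 in C3 and 169 in C6) and the apical-like cluster 0 (134 ± 19.3) followed, each overlapping in range with the next (SD, n = 2). Cluster 23, where both GABBR2-like genes were highest, had 51.7 ± 14.7 CPM of the GABBR1-like gene.

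XP_027040334.1 was called higher in cluster 0, the largest coral cluster with 1403 cells, called apical-like on 4 of 7 naming genes (log2 fold change 1.23 ± 0.174 SE, adjusted p = 7.49e-10) and in cluster 1 (1.36 ± 0.208, 1.25e-08; edgeR, adjusted over genes and clusters) of 28 clusters, where 4.91% and 4.52% of all genes were called higher. Cluster 25, with the highest level, passed the adjustment over genes but not that over clusters (1.31 ± 0.416, 0.0646). The calls in clusters 0 and 1 were lost with DESeq2 and without the colony as a block. The apical-like name of cluster 0 is not firm. The apical naming gene XP_027047514.1 had 21 UMIs in all cells. Its highest level, 8.49 CPM in cluster 25, rests on 1.08% of the 93 cells there, too few to place the gene. The study keeps its apical cells apart from its epidermal clusters, and which of these cluster 0 holds was not tested. XP_027036429.1 had 3 UMIs in cluster 0 and 2 in cluster 1, and XP_027040340.1 had none in either. The share of cells with a UMI of the GABBR1-like gene was 16.8% in GLWamide-like cells (11.4 to 23.5), 10.4% in cluster 0, 11.8% in cluster 1, 3.23% in cluster 23 and 6.08% in all cells outside the GLWamide-like cluster. Thinned to 500 UMIs it was 8.97%, 7.22%, 7.38%, 1.98% and 3.41%, and the intervals of GLWamide-like cells, cluster 0 and cluster 1 overlapped (4.86 to 14.8, 5.68 to 9.02 and 5.27 to 9.99).

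The colonies gave the same order of GLWamide-like cells over other cells for each of the 3 genes. In other cells XP_027036429.1 was lower in C3 than in C6, with counting intervals that did not overlap, and XP_027040340.1 and XP_027040334.1 had overlapping intervals. With 1 biological sample a colony, the difference was not tested, and colony and month of release cannot be told apart.

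The Pocillopora genes were set against the GLWamide precursor in the same way. XP_027036429.1 was found in 5 of 22 GLWamide-like cells with a precursor UMI (22.7%) and in 45 of 139 without (32.4%), and stood at 708 CPM (420 to 1120) and 526 CPM (435 to 630). XP_027040340.1 was found in 3 of 22 (13.6%) and 15 of 139 (10.8%). XP_027040334.1 was found in 9 of 22 cells with the precursor (40.9%, 20.7 to 63.6) and in 18 of 139 without (12.9%, 7.86 to 19.7), and stood at 512 CPM (272 to 875) and 138 CPM (93.9 to 196). By colony, the GABBR1-like gene stood at 904 and 145 CPM in C3 and at 340 and 133 CPM in C6, and its level in cells with the precursor rests on 13 UMIs in all. Cells with the precursor had a median of 1056 UMIs and cells without it 1438. No test was run, since cells of 1 sample are not replicates, and the part of depth was not tested.

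**Figure D4:**
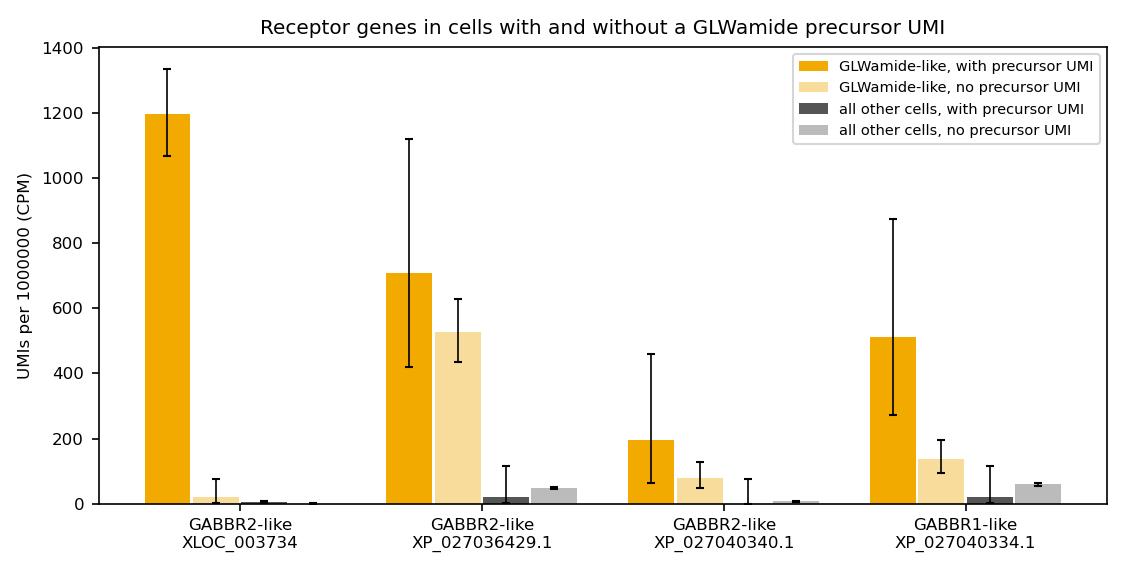
CPM (y axis, linear) of the 4 receptor genes in GLWamide-like cells and all other cells, with and without a UMI of the GLWamide precursor; bars are sums over all samples and lines are 95% exact Poisson intervals. The Clytia gene stood at 1195 CPM with the precursor and 21.4 CPM without, the GABBR1-like gene of Pocillopora at 512 and 138 CPM.

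For every 100 precursor UMIs, GLWamide-like cells of Pocillopora held 21.2 UMIs of XP_027036429.1, 3.59 of XP_027040340.1 and 6.86 of XP_027040334.1, and other cells held 1092, 173 and 1339. The values of other cells rest on 49 precursor UMIs. By colony they were 1817 in C3 and 857 in C6 for XP_027036429.1, 442 and 86.5 for XP_027040340.1, and 2583 and 935 for XP_027040334.1. These proportions differed between the cell sets by over an order of magnitude, unlike in Clytia, where other cells held 1845 precursor UMIs.

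The cells that held UMIs of both genes of a pair were counted, beside the number that the product of their shares gives. Both GABBR2-like genes were present in 11 GLWamide-like cells, of 50 with XP_027036429.1 and 18 with XP_027040340.1 (product of shares 5.59), and in 17 cells of cluster 23, of 53 and 27 (11.5). Over all cells 43 held both, which is 11.4% of the cells with XP_027036429.1 and 46.7% of those with XP_027040340.1. The GABBR1-like gene and XP_027036429.1 met in 15 GLWamide-like cells, of the 27 with the GABBR1-like gene and the 50 with XP_027036429.1 (8.39), in 4 cells of cluster 23, of 4 and 53 (1.71), and in 19 cells elsewhere, of 578 and 273, close to the product of shares there (16.7). The GABBR1-like gene and XP_027040340.1 met in 6 GLWamide-like cells and in 5 others. GLWamide-like cells with a UMI of XP_027036429.1 were deeper than those without, with a median of 1733.5 against 1200 UMIs, and what depth adds to the shared cells was not tested.

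Over 57 points of cluster and colony, XP_027036429.1 and XP_027040340.1 had a Pearson r of 0.68, XP_027036429.1 and XP_027040334.1 of 0.28, and XP_027040340.1 and XP_027040334.1 of 0.10. The genes that followed XP_027036429.1 most closely among 14020 were XP_027057415.1 (0.87), XP_027038718.1 (0.86), XP_027035984.1 (0.85), XP_027058893.1 (0.84) and XP_027050584.1 (0.84). For XP_027040340.1 they were XP_027049781.1 (0.82), XP_027058325.1 (0.79), XP_027041907.1 (0.78), XP_027054440.1 (0.78) and XP_027054896.1 (0.77), and its correlation with the log2 total UMIs of a point was -0.35. For XP_027040334.1 they were XP_027038017.1 (0.75), XP_027044579.1 (0.74), XP_027059354.1 (0.71), XP_027055221.1 (0.71) and XP_027054584.1 (0.69). None of these genes is a naming gene or a listed receptor, and the points share libraries.

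The wider GABA and receptor list of Pocillopora gave more calls than that of Clytia, in species that were not tested against each other. Of 12 listed genes 7 passed the filter and 4 were called higher in GLWamide-like cells, where 5.90% of all 12291 genes tested were called higher. The study lists 2 of the 4, XP_027037249.1 and XP_027040858.1, for these cells, so the count is not independent evidence, and both are given as a description without a test. The median log2 fold change of the 7 was 1.88, and that of all genes was -0.46. The VIAAT-like transporter XP_027037249.1 stood in GLWamide-like cells at 404 CPM in C3 and 288 CPM in C6, against 1.05 and 1.30 CPM in other cells, with no overlap between the groups. The GABRB1-like XP_027040858.1 stood at 144 CPM in C3 and 192 CPM in C6, against 4.19 and 7.96 CPM in other cells. Both genes had their highest level in GLWamide-like cells and no UMI in cluster 23.

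The other 2 called genes were higher elsewhere. The Cys-loop channel XP_027042866.1 averaged 255 ± 60.5 CPM in GLWamide-like cells and 28.9 ± 15.2 CPM in other cells (SD, n = 2; log2 fold change 2.73 ± 0.302 SE, adjusted p = 5.60e-18, edgeR), and stood at 1327 ± 299 CPM in cluster 23, in 62.1% of its cells. The class C receptor XP_027050808.1 averaged 218 ± 85.7 CPM in GLWamide-like cells and 41.1 ± 4.88 CPM in other cells (SD, n = 2; 1.88 ± 0.293, adjusted p = 2.81e-09, edgeR), and was highest in cluster 25, at 2623 CPM in 79.6% of its cells. XP_027056393.1, the other class C receptor of the list, had no UMI among 249826 UMIs of GLWamide-like cells, which allows up to 12.0 CPM, so it was at least 5.90-fold lower than in other cells, at 70.9 CPM, and it fell (adjusted p = 2.17e-09, edgeR). XP_027047056.1, a Cys-loop channel, averaged 54.2 ± 49.4 CPM in GLWamide-like cells and 28.2 ± 14.5 CPM in other cells, with opposite order in the 2 colonies (SD, n = 2; adjusted p = 0.343, edgeR).

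The coral levels depended on the border of the GLWamide-like class, which was drawn here and is not the study's own. From the first random start the class held 866 cells, the 161 cells above, 704 of the 802 cells of cluster 3 and 1 other cell, and the levels fell to 266 ± 43.2 CPM for XP_027036429.1, 30.1 ± 8.75 CPM for XP_027040340.1 and 75.0 ± 12.1 CPM for XP_027040334.1 (SD, n = 2). With scaled values limited to 10 it held 764 cells, with 284 ± 51.1, 28.5 ± 6.92 and 88.2 ± 16.9 CPM. At clustering resolutions of 0.6 and 1.5 it held 187 and 174 cells, and XP_027036429.1 averaged 581 and 542 CPM. All 3 genes stood in each of these classes above their levels in all other cells given above, and the class C receptor XP_027050808.1 kept its call in both wider classes, while the call of XP_027042866.1 was lost in the class of 764 cells. Among the 48 cells with a precursor UMI, whatever their cluster, the means were 233 ± 83.8 CPM for XP_027036429.1, 84.8 ± 64.8 CPM for XP_027040340.1 and 221 ± 119 CPM for XP_027040334.1 (SD, n = 2). In Clytia the class held 134 to 182 cells in every clustering run and XLOC_003734 averaged 857 to 1229 CPM.

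**Figure D5:**
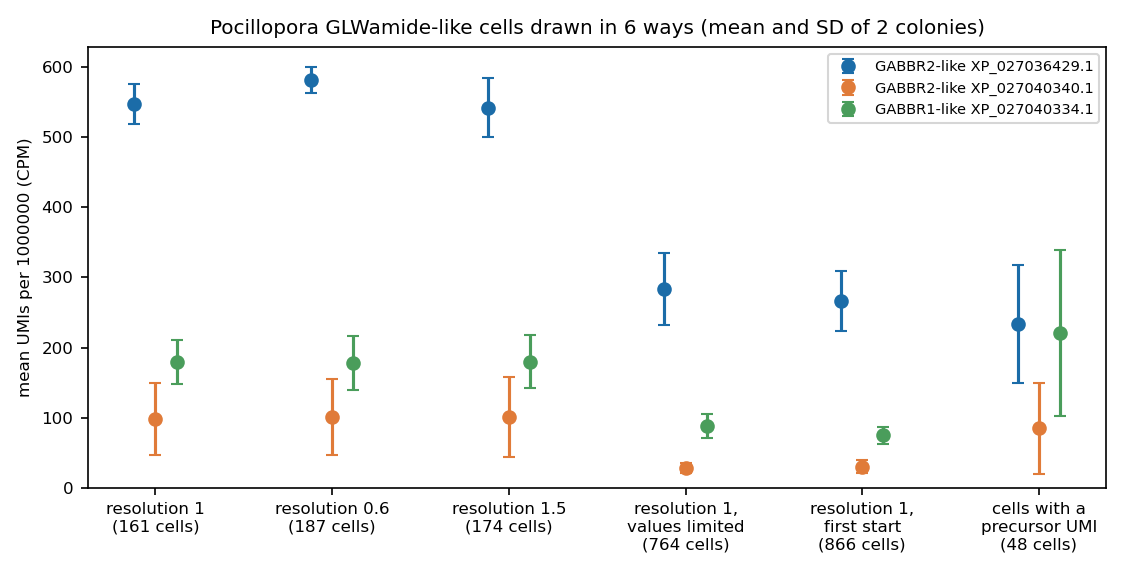
Mean CPM (y axis, linear) of the 3 Pocillopora receptor genes in the GLWamide-like cells drawn at 3 clustering resolutions, with scaled values limited to 10, from the first random start, and in the 48 cells with a precursor UMI (x axis, with the number of cells); lines are the SD of 2 colonies. XP_027036429.1 stood at 548 CPM in 161 cells and 266 CPM in 866.

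The best match of XLOC_003734 in the third species of the series, the coral Astroides, is STRG.30141. It had 20 UMIs in 19933 cells, 19 in sorted and 1 in unsorted cells. None lay in the 279 cells with a UMI of the Astroides GLWamide precursor STRG.15971, where the exact 95% upper bound was 7.96 CPM. That bound lies above the 0.736 CPM of all cells, so no difference was detectable at this depth.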

How the data were processed

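The authors mapped reads with STARsolo (version not given in the sources used here) to the Clytia genome and, for Pocillopora, to the P. damicornis genome, kept barcodes that EmptyDrops called as cells and that held 300 UMIs or more, and deposited whole UMI counts of each gene in each of them, not normalized. Reads and empty droplets were not used here. The study's limits of 300 UMIs, 200 genes and a mitochondrial share of at most 20% in Clytia, 5% in Pocillopora and 0.4% in Astroides were applied. Upper limits of 75000 UMIs and 5000 genes in Clytia, 20000 and 4000 in Pocillopora, and 10000 and 3000 in Astroides were taken from an earlier treatment of these data. Doublets were not called, as in the study for Clytia and Pocillopora, so mixed droplets can put a receptor and a precursor in 1 barcode.

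Counts were scaled to 10000 UMIs a cell, log-transformed and scaled, and variable genes were reduced to 22 principal components in Clytia and 23 in Pocillopora. The Clytia matrices were integrated with a recoded Harmony algorithm, 1 batch per matrix. Leiden clusters (leidenalg 0.10.2, igraph 0.11.9, scanpy 1.11.5 for variable genes, python 3.11.15) used 50 neighbors and resolution 1. In Clytia, the cluster with the fewest unique markers (833 cells) was left out, which is simpler than the study's rule, and 2 clusters that met the naming rule of several types were split further (15 neighbors, resolution 0.5). A cluster took a name when at least 3 and 50% of its naming genes, from the study's marker tables, had at least 10 UMIs and over 4 times the level of other cells, and no other type had more naming genes among its top 10. A difference from the study may come from these rebuilt names.

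The partition of the highest quality of 10 random starts was used, with the linear algebra kernel fixed. This rule was set after the size of the coral GLWamide-like class had been seen to change with the rounding alone, and the first random start by itself is given as an alternative. Scaled values were not limited, the Scanpy default that the study's methods imply. A limit of 10, used in an earlier treatment of these data, is an alternative, and this choice was made after seeing the class sizes that both gave. Over 3 kernels of 10 starts each, 22 of 30 starts gave a coral class of over 500 cells, as did the best start of 2 of the 3 kernels.

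UMIs were summed over cells in each biological sample, technical replicates together, and edgeR 4.0.16 (R 4.3.3; TMM, filterByExpr, quasi-likelihood test, sample as block) compared the sums, with Benjamini-Hochberg adjustment over all genes. A call of higher needed a log2 fold change above 1 with adjusted p under 0.05. Fits of other clusters needed at least 10 cells in each sample, and p was adjusted again over clusters. SE is the log2 fold change over the square root of its F statistic. The block joins both cell sets of 1 sample, as the design gives it. On simulated counts with 200 changed genes, the Clytia comparison (11399 genes) recovered 0% at a 2-fold change, 30% at 4-fold, 90% at 8-fold and 100% at 16-fold, and the Pocillopora comparison (12152 genes) 2%, 40%, 94% and 100%. Small changes in the GLWamide-like cells could therefore pass unseen. False calls were 12 of 122 in Clytia and 1 of 119 in Pocillopora. The changed genes were drawn from genes with many UMIs in other cells, at a fixed dispersion of 0.1 with no difference between samples. Calls were scored without the fold change limit, and recovery of rarer genes was not tested.

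Named genes are the 4 receptor genes, their Astroides match, the listed class C, GABA, Cys-loop and TauD genes, the 5 genes most like each receptor gene, and naming or leading genes of clusters. Genes and lists were chosen with earlier results of these data known. Alternatives were DESeq2 1.42.0, RLE size factors, no filter, no block, deeper cells, other clusterings and leaving out each sample. No protein or promoter sequence of these genes was used here.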

Additional observations from a re-analysis of the deposited data

Results flagged for a closer look

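The share of GLWamide-like cells with a UMI of XLOC_003734 was 16% in the methanol sample and 44.8 to 46.4% in the other 3 Clytia samples. The gap to the nearest sample was 0.947 of the whole range, above the critical value for 4 samples. Of 10 groups of values looked at, this was the 1 that passed, and chance passes about 1 in 20. The methanol share rests on 4 of 25 cells, and the methanol level, 648 CPM (378 to 1038), has an interval that overlaps with those of the other samples.

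Barcodes that the filters left out held UMIs of 3 of the receptor genes, above the 3 UMIs set as the limit of a count of 0. XLOC_003734 had 10 UMIs in 3715 Clytia barcodes, or 3.20 CPM. All clustered Clytia cells stood at 6.36 CPM, and those outside the GLWamide-like cluster at 0.639 CPM. The cell types of the left-out barcodes were not looked at. XP_027036429.1 had 4 UMIs and XP_027040334.1 had 15 UMIs in 283 Pocillopora barcodes, or 15.3 and 57.4 CPM, and XP_027040340.1 had 0.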

How the results depend on the processing

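Of 447 alternative values, 367 counted as unchanged, by rules that differ between kinds of value. Mean levels and shares had to stay within the spread between samples. Means with 1 sample left out cannot leave that spread whatever the values, so they show nothing about stability. Counts of called genes or clusters had to stay within a set ratio of the main count. Fits of single genes had to keep their direction and their side of the threshold, or their direction alone where they had no test. Limiting scaled values to 10 and the first random start by itself were chosen after seeing the data. For the mean level in GLWamide-like cells, the alternatives that moved it were, for XLOC_003734, no integration (1229 CPM) and all cells with a precursor UMI (93.9 CPM, 902 cells), for XP_027036429.1 cells with a precursor UMI (233), resolution 0.6 (581), limited values (284) and the first start (266), for XP_027040340.1 limited values (28.5) and the first start (30.1), and for XP_027040334.1 cells with a precursor UMI (221), thinning (249), limited values (88.2) and the first start (75.0). For the mean share of cells over samples they were, for XLOC_003734, no integration (61.2%) and cells with a precursor UMI (8.46%), for XP_027036429.1 cells with a precursor UMI (13.3%), thinning (18.7%), limited values (16.3%) and the first start (14.7%), for XP_027040340.1 the same (6.11%, 5.78%, 2.74% and 3.16%), and for XP_027040334.1 cells of at least 500 UMIs (18.4%) and then the same (21.1%, 8.93%, 7.03% and 6.23%). The cause of these moves was not tested. Each of these alternatives changes by construction which cells are used. Thinning also cuts the UMIs counted in a cell, which can only lower or keep the share of the same cells.

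Of the calls in Clytia, 995 genes were higher in GLWamide-like cells, and leaving out 1 sample gave 525 (without 66 hpf) to 933. The 2 listed genes called became 1 without the replicate block and without the ACME or the methanol sample (1 to 2 over left-out samples). The 1 other cluster called for XLOC_003734 became 0 with no filter, and 0 without the ACME or the methanol sample (0 to 1 over left-out samples). Its test could not be made with no block, at resolution 0.6, among cells of at least 500 UMIs, without the 66 hpf sample, with no cluster left out or with no integration, since the gene then passed the filter in no cluster. In Pocillopora the 725 genes called became 448 with DESeq2, 1382 with limited values and 1414 from the first start, and 1411 to 1458 with 1 colony, by ratio above 1 on the log2 scale and no test. The 6 other clusters called for any receptor gene became 3 without the replicate block and 9 to 13 with 1 colony, again with no test. XP_027042866.1 lost its call with limited values (log2 fold change 0.37).

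The replicate block is the sample that both cell sets come from. Without it 795 genes were called in Clytia and 615 in Pocillopora, and the 4 listed Pocillopora genes stayed called.

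Signs turned for 3 listed genes, none of them called. XLOC_014025 had a log2 fold change of 0.39, and -0.30 with no integration and -0.15 to 0.78 with 1 sample left out. XLOC_033747 had 0.07, and -0.0015 with RLE size factors, -0.23 with no filter, -0.84 among cells of at least 500 UMIs, -0.98 with no integration, -0.89 with limited values, and -0.0055 to 0.14 with 1 sample left out. XP_027047056.1 had 0.71, and -0.26 with limited values, -0.19 from the first start, and -1.44 to 1.93 with 1 colony. A median of 941 to 1643 UMIs a Clytia cell and 745.5 to 820 a Pocillopora cell limits what a share of cells with a UMI can show.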
